A study of Mus musculus with 36 samples.

Results

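The IgG Fc receptors described here are the products of 6 genes: *Fcgr1*, *Fcgr3* and *Fcgr4*, *Fcgr2b*, *Fcer1g* and *Fcgrt*. They were taken by gene name from the deposited count table, where they make up 6 of 24781 gene entries, and all 6 were found. Fc receptors bind the constant region of IgG and link antibody to the cells that act on it. The receptors FcγRI, FcγRIII and FcγRIV activate macrophages through the ITAM motif (the tyrosine motif that recruits the kinase Syk) of a shared γ-chain, which *Fcer1g* encodes, while FcγRIIB carries an inhibitory ITIM motif in its own tail. The neonatal receptor, an *Fcgrt* product paired with β2-microglobulin, binds IgG inside the cell and returns it from endosomes to the surface or the blood.

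The study sorted tumour-associated macrophages (TAMs; CD45+CD11b+F4/80 high) and CD8+ T cells (CD45+TCRβ+CD8+) from MC38 tumours, a mouse colon adenocarcinoma line placed in the skin, on day 7. Each library came from 100 sorted cells of 1 mouse, and its molecules were primed at the poly(A) tail and counted with molecular barcodes. Each cell type had 3 groups of 6 libraries: wild-type (WT) mice, *muMt*-/- mice, whose B cells do not mature, and *muMt*-/- mice carrying an implanted pellet of GABA, a metabolite that B cells make. The mice were adults of both sexes, *muMt*-/- on C57BL/6J and WT on either C57BL/6J or C57BL/6N. The labels list no treatment for the WT and untreated *muMt*-/- groups, while the study's methods give them placebo pellets. The *muMt*-/- mice lack B cells throughout life and in every tissue, so the groups do not separate B cells of the tumour from those elsewhere. IgG itself was not measured.

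In WT mice marker genes matched the gates. Summed over 12 macrophage markers, the normalized number of molecules (molecules divided by DESeq2 size factors, set within each cell type) was 2296 ± 249 (SD, n = 6) in WT TAMs and 25.3 ± 12.8 (SD, n = 6) in WT CD8+ T cells. Summed over 9 T cell markers, it was 3.45 ± 2.39 (SD, n = 6) in WT TAMs and 200.4 ± 56.8 (SD, n = 6) in WT CD8+ T cells. In 3 CD8+ T cell libraries of *muMt*-/- mice the macrophage sum exceeded the T cell sum: untreated replicate 1 (203 against 83.9), and replicates 1 (122 against 87.1) and 3 (162 against 123) with GABA. Depth differed between cell types and groups. TAM libraries held 206394 to 304100 molecules in WT, 100254 to 253608 in *muMt*-/- and 151856 to 262606 in *muMt*-/- mice with GABA. CD8+ T cell libraries held 22896 to 76898, 51064 to 77839 and 65356 to 98015 molecules in the same order of groups. Of the CD8+ T cell libraries, 3 stood apart in the Fc receptor genes: replicate 5 of WT, replicate 1 of *muMt*-/- and replicate 1 of *muMt*-/- with GABA. Differences between CD8+ T cell groups are therefore also given without 1 or 2 of them at a time.

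In TAMs the Fc receptor genes were abundant, apart from *Fcgrt*. The 6 genes together gave 0.443 ± 0.0494% (SD, n = 6) of all molecules in WT TAMs, 0.414 ± 0.0636% (SD, n = 6) in *muMt*-/- TAMs and 0.412 ± 0.109% (SD, n = 6) in *muMt*-/- TAMs with GABA, so the total was alike in the 3 groups. By mean level over the 18 TAM libraries, *Fcer1g* ranked 64 among all genes, *Fcgr3* 139, *Fcgr2b* 226, *Fcgr4* 240, *Fcgr1* 276 and *Fcgrt* 4873. Scaled to the length of the merged exons, the level was 314 ± 77.7 molecules per kilobase (SD, n = 18) for *Fcer1g*, 105 ± 21.8 (SD, n = 18) for *Fcgr3* and 92.3 ± 20.7 (SD, n = 18) for *Fcgr4*. Per kilobase, *Fcgr1* followed at 39.5 ± 6.38 (SD, n = 18), *Fcgr2b* at 21.0 ± 5.42 (SD, n = 18) and *Fcgrt* at 2.72 ± 1.35 (SD, n = 18). *Fcgr3* and *Fcgr4* did not differ beyond their spread on that scale, and the other neighbours in the order did. Over these 18 libraries *Fcgr2b* came before *Fcgr4* and *Fcgr1* by molecules and after both per kilobase. In WT TAMs alone the means of the 3 lay close, at 102 for *Fcgr2b*, 104 for *Fcgr1* and 106 for *Fcgr4*. In a protocol that counts 3′ ends, molecules are not set by transcript length, so both orders are given.

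The first comparison asked what the absence of B cells did in TAMs. The activating receptors kept similar levels, *Fcgr2b* had a higher mean, and *Fcer1g* had a lower mean, but none of the 6 genes passed the test. The mean of *Fcgr2b* was 148 ± 32.0 (SD, n = 6) in *muMt*-/- TAMs against 102 ± 15.3 (SD, n = 6) in WT TAMs, a ratio of 1.45. The mean of *Fcer1g* was 242 ± 60.0 (SD, n = 6) against 317 ± 35.7 (SD, n = 6), a ratio of 0.764. In bulk libraries, fewer cells of a type and less RNA per cell cannot be told apart.

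Among the activating receptors, *Fcgr1* encodes FcγRI, which binds monomeric IgG with high affinity. Its normalized number had a lowest, median and highest value of 73.4, 105 and 125 in WT TAMs and 91.6, 101 and 131 in *muMt*-/- TAMs. The groups lay on top of each other, with 1 of 6 *muMt*-/- libraries above all WT libraries. *Fcgr3* encodes FcγRIII, a low-affinity receptor for immune complexes, and ran 163, 191 and 239 in WT against 123, 186 and 213 in *muMt*-/- TAMs. Only 1 *muMt*-/- library fell outside the WT range, on its low side. *Fcgr4* encodes FcγRIV, which binds IgG2 subclasses in complexes, and ran 69.9, 108 and 133 in WT against 104, 122 and 157 in *muMt*-/- TAMs. Here 2 of 6 *muMt*-/- libraries were above all WT libraries and the rest overlapped. The log2 fold changes were -0.01 for *Fcgr1* (SE 0.16, adjusted p 0.989), -0.13 for *Fcgr3* (SE 0.18, adjusted p 0.808) and 0.22 for *Fcgr4* (SE 0.18, adjusted p 0.619). The sign for *Fcgr1* was not stable: with the size factors of DESeq2 in place of TMM it was 0.01. That for *Fcgr3* became 0.13 when the number of molecules per library was a covariate.

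*Fcgr2b*, the inhibitory receptor, had a lowest, median and highest value of 82.7, 105 and 123 in WT TAMs and 114, 141 and 185 in *muMt*-/- TAMs. All 6 *muMt*-/- libraries were above the WT median and 4 were above every WT library, while the remaining ones overlapped the top of the WT range. The log2 fold change was 0.50 (95% CI 0.18 to 0.82, p 0.00437, adjusted p 0.101 in edgeR), which missed the threshold of 0.05. DESeq2 gave 0.53 with an adjusted p of 0.0306, and edgeR with a stricter filter on low counts gave 0.53 with an adjusted p of 0.0415. Over 21 alternatives the log2 fold change stayed between 0.41 and 0.57 and the adjusted p ranged from 0.0306 to 0.371.

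*Fcer1g*, the γ-chain, had a lowest, median and highest value of 272, 317 and 379 in WT TAMs and 152, 253 and 328 in *muMt*-/- TAMs. Of the *muMt*-/- libraries, 5 of 6 were below every WT library and the other lay inside the WT range. The log2 fold change was -0.41 (95% CI -0.79 to -0.04, p 0.0353, adjusted p 0.289 in edgeR), which did not pass. *Fcgrt* was scarce, at 1 to 16 molecules per WT library and 2 to 6 per *muMt*-/- library, and its normalized number ran 0.789, 6.04 and 11.6 in WT against 2.49, 5.87 and 9.42 in *muMt*-/- TAMs. Every *muMt*-/- value of *Fcgrt* lay inside the WT range, and the log2 fold change was -0.21 (SE 0.41, adjusted p 0.880). *B2m*, the partner chain of the neonatal receptor, was at 1371 ± 110 (SD, n = 6) in *muMt*-/- against 1165 ± 175 (SD, n = 6) in WT TAMs (adjusted p 0.516).

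By the edgeR test, 0 of 6 members passed in this comparison, beside 194 of 9469 genes tested (2.05%). The count over all genes was 67 without *muMt*-/- replicate 4, 87 without WT replicate 1 and 11 with log2 molecules as a covariate. At an unadjusted p under 0.05, 1 member was higher (beside 6.72% of genes tested) and 1 lower (beside 8.15%). DESeq2 called 1 of 6 members, *Fcgr2b*, beside 282 genes in all (2.98%). The normalized values of no member separated the groups, beside 1.15% of genes tested with all *muMt*-/- libraries higher and 1.33% with all lower.

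**Figure D1:**
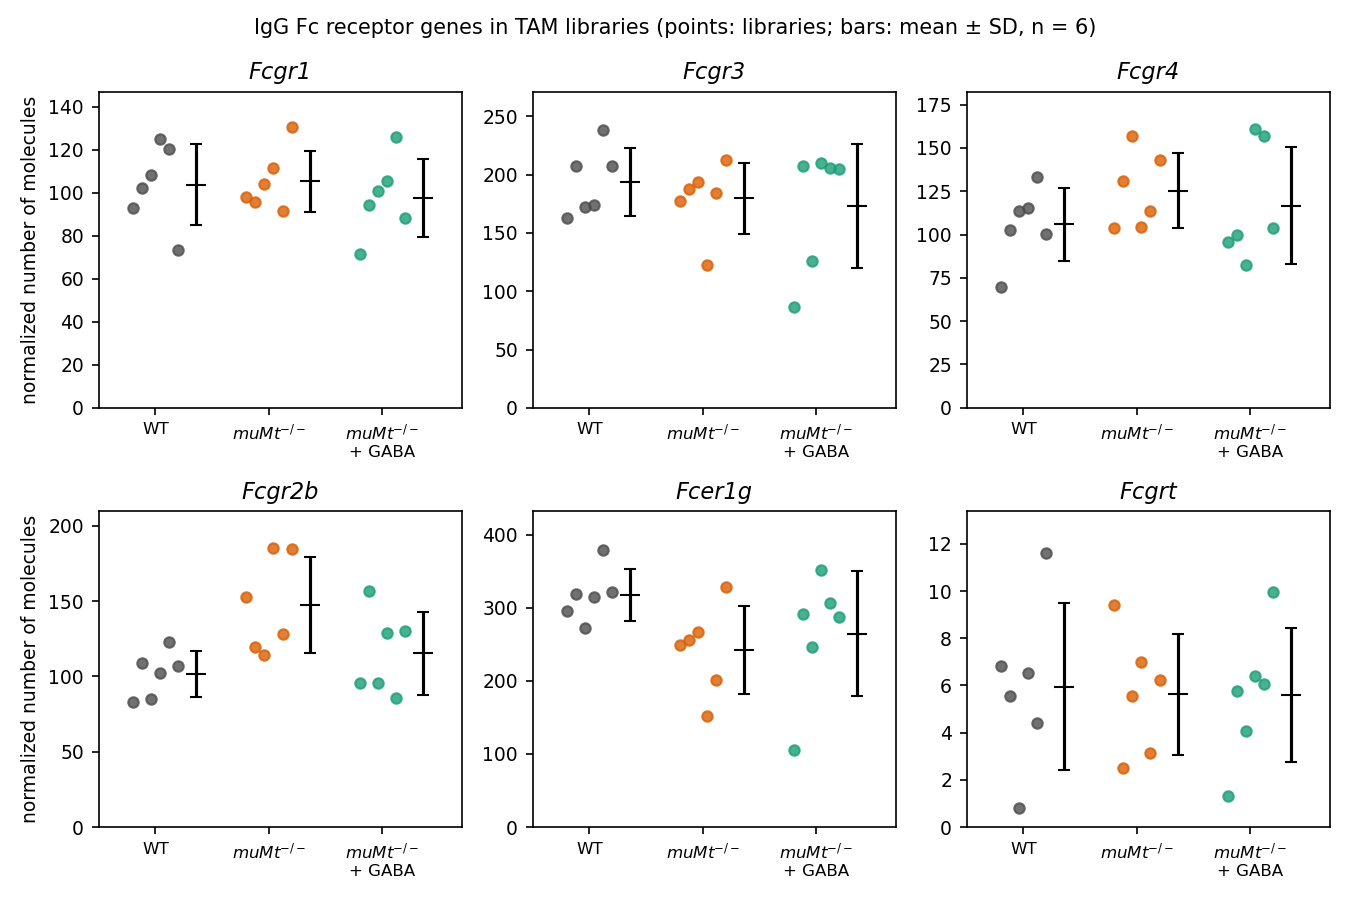
Normalized number of molecules (y axis, from 0) of the 6 genes in each TAM library of WT, *muMt*-/- and *muMt*-/- mice with GABA; points are libraries and bars are the mean ± SD of 6. *Fcgr2b* sat between 114 and 185 in *muMt*-/- TAMs against 82.7 to 123 in WT, and *Fcer1g* between 152 and 328 against 272 to 379.

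Ratios between the genes inside a library do not depend on the scaling between libraries. In *muMt*-/- TAMs the mean share of *Fcgr2b* among the Fcγ receptor molecules was larger than in WT, that of *Fcgr3* was smaller, and the mean of *Fcer1g* per receptor molecule was lower. The share of *Fcgr2b* among the molecules of *Fcgr1*, *Fcgr2b*, *Fcgr3* and *Fcgr4* had a lowest, median and highest value of 17.8%, 20.1% and 21.9% in WT and 20.1%, 26.2% and 35.4% in *muMt*-/- TAMs. The WT libraries were tightly grouped, and 5 of 6 *muMt*-/- libraries were above all of them. The means were 20.1 ± 1.36% (SD, n = 6) and 26.5 ± 5.40% (SD, n = 6). The molecules of activating receptors per *Fcgr2b* molecule were 3.99 ± 0.352 (SD, n = 6) in WT and 2.90 ± 0.761 (SD, n = 6) in *muMt*-/- TAMs. The share of *Fcgr3* was 38.4 ± 3.18% (SD, n = 6) in WT and 32.2 ± 4.53% (SD, n = 6) in *muMt*-/- TAMs, with 3 of 6 *muMt*-/- libraries below all WT libraries. The shares of *Fcgr1* and *Fcgr4* overlapped, at means of 20.6% and 20.8% in WT and 18.9% and 22.5% in *muMt*-/- TAMs.

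*Fcer1g* stood at 56.8, 61.3 and 72.2 molecules (lowest, median and highest) per 100 Fcγ receptor molecules in WT TAMs and at 29.0, 46.9 and 48.8 in *muMt*-/- TAMs. The groups did not overlap: all 6 *muMt*-/- libraries were below all 6 WT libraries. The means were 63.1 ± 5.31 (SD, n = 6) and 43.1 ± 7.79 (SD, n = 6), further apart than the spread in either group. Counted against the activating receptors alone, which pair with the γ-chain, *Fcer1g* was at 79.1 ± 7.42 (SD, n = 6) and 58.4 ± 8.65 (SD, n = 6) per 100 molecules, again with no overlap (all *muMt*-/- libraries lower, as for 1.26% of genes tested on that measure). When every gene tested was divided by the same receptor molecules, 186 of 9469 (1.96%) had all *muMt*-/- libraries below all WT libraries, so *Fcer1g* was 1 of many on this measure. These ratios were given no test of their own.

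Single *muMt*-/- TAM libraries varied. The deepest, replicate 5 with 253608 molecules, had 38.9 *Fcer1g* molecules per 100 receptor molecules. Its *Fcgr2b* share was 24.8% (95% Wilson interval 21.7% to 28.2%, which starts inside the WT range). In replicate 3, with 209198 molecules, *Fcer1g* was at 47.0 and *Fcgr2b* at 20.1% (95% Wilson interval 17.1% to 23.4%), the latter inside the WT range. Replicate 4 was the far end of its group, with an *Fcgr2b* share of 35.4% (95% Wilson interval 30.7% to 40.3%), an *Fcgr3* share of 23.4% and *Fcer1g* at 29.0. The intervals cover counting error only, and the part of depth was not tested.

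**Figure D2:**
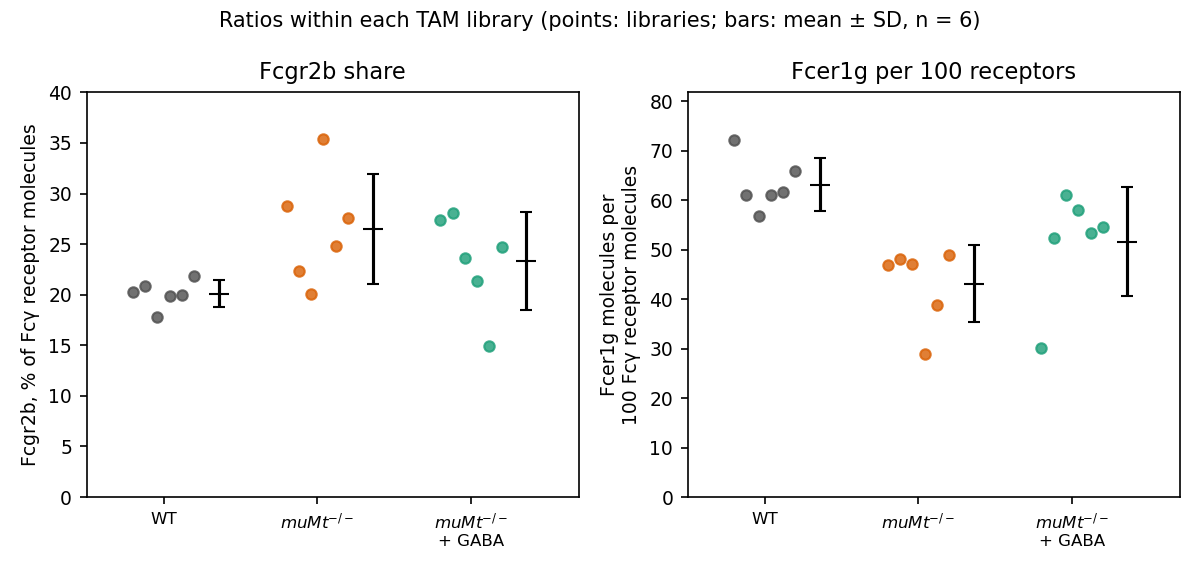
*Fcgr2b* as a percent of Fcγ receptor molecules (left) and *Fcer1g* molecules per 100 Fcγ receptor molecules (right) in each TAM library by group; points are libraries and bars are the mean ± SD of 6. *Fcer1g* sat between 29.0 and 48.8 in *muMt*-/- TAMs, below the 56.8 to 72.2 of WT TAMs.

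Other features of the TAM libraries moved along with these values. The 6 monocyte markers, all detected and led by *Ccr2*, summed to 548 ± 146 (SD, n = 6) in *muMt*-/- against 316 ± 41.4 (SD, n = 6) in WT TAMs, a ratio of geometric means of 1.68 (1 was added to each marker sum; exact permutation p 0.00866, adjusted 0.0260). The 12 macrophage markers, all detected and led by *Apoe*, summed to 1889 ± 189 (SD, n = 6) against 2296 ± 249 (SD, n = 6), a ratio of geometric means of 0.824 (exact permutation p 0.0130, adjusted 0.0390). The 12 did not move alike: means in WT and *muMt*-/- TAMs were 419 and 278 for *C1qb*, 54.2 and 54.1 for *Adgre1*, 99.9 and 162 for *Itgam*, and 9.01 and 17.9 for *Mertk*, genes picked after their values were seen. Total molecules per library were lower in *muMt*-/- TAMs, at a ratio of geometric means of 0.646 (exact permutation p 0.0260, adjusted 0.0779). Over the 18 TAM libraries, *Fcgr2b* went with the monocyte sum at r = 0.637 and with the macrophage sum at r = 0.0993, while *Fcer1g* went with them at r = -0.192 and r = 0.730. These r pool all TAM groups, and replicate 1 with GABA held both the lowest *Fcer1g* value (105) and the lowest macrophage sum (1383). With log2 molecules as a covariate, the log2 fold change was 0.57 for *Fcgr2b* (adjusted p 0.371) and -0.27 for *Fcer1g* (adjusted p 0.825). The part of monocyte content, macrophage content and depth in the Fc receptor values was not tested.

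Markers of other cells that carry Fc receptors were low in TAMs. The B cell markers, of which 4 of 8 were detected, summed to 1.43 in WT and 2.42 in *muMt*-/- TAMs. The NK cell markers, 3 of 5 detected, summed to 0.154 and 0.545, with *Ncr1* and *Klra8* at 0, and the mast cell and basophil markers, 3 of 6 detected, to 0.363 and 0.154, with *Cpa3*, *Fcer1a* and *Ms4a2* at 0. The neutrophil markers, 6 of 8 detected and led by *Csf3r*, summed to 12.8 ± 10.3 (SD, n = 6) in WT and 21.7 ± 6.18 (SD, n = 6) in *muMt*-/- TAMs (exact permutation p 0.0498, adjusted 0.195), with *Retnlg* and *Camp* at 0. The dendritic cell markers, 5 of 6 detected and led by *Clec9a*, summed to 1.22 and 3.53 (exact permutation p 0.0108, adjusted 0.0325), with *Cd209a* at 0. Tumour and stroma markers, which stand apart from the cells above, were not low. With 5 of 8 detected and led by *Col3a1*, they summed to 196 and 128. They varied widely between libraries, from 16.3 to 905 in WT and 14.0 to 375 in *muMt*-/- TAMs.

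The second comparison asked what a GABA pellet did in TAMs of mice without B cells. It shared the untreated *muMt*-/- libraries with the first. *Fcgr2b* was lower in mean with GABA, *Fcer1g* was slightly higher, the other 4 genes differed little, and none passed the test. *Fcgr2b* had a lowest, median and highest value of 85.6, 112 and 156 in *muMt*-/- TAMs with GABA, against 114, 141 and 185 without it. Of the GABA libraries, 3 of 6 were below all untreated libraries and the others overlapped them. The log2 fold change was -0.30 (95% CI -0.63 to 0.02, p 0.0719, adjusted p 0.632). *Fcer1g* ran 105, 290 and 352 with GABA, and replicate 1 held both the lowest *Fcer1g* and the lowest *Fcgr3* value of all TAM libraries, at 105 and 86.3. The log2 fold change of *Fcer1g* was 0.17 (SE 0.19, adjusted p 0.864). Those of *Fcgr1*, *Fcgr3*, *Fcgr4* and *Fcgrt* were -0.07, -0.02, -0.08 and 0.19, and the signs of all 4 turned when single libraries were left out.

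In edgeR, 0 of 6 members passed for GABA, beside 2 of 9469 genes tested (0.0211%), a count of all genes that was 36 (0.379%) without replicate 1 of the GABA group. At an unadjusted p under 0.05 the count of members was 0, beside 8.46% of genes tested, and DESeq2 called 0 members and 62 genes. Within libraries, *Fcer1g* stood at 51.6 ± 11.0 (SD, n = 6) per 100 Fcγ receptor molecules with GABA against 43.1 ± 7.79 (SD, n = 6) without it. All GABA libraries but replicate 1, at 30.0, were above every untreated *muMt*-/- library. Per 100 activating receptor molecules the means were 67.2 and 58.4, and 4 of 6 GABA libraries lay above the untreated range and 1 below it. The share of *Fcgr2b* was 23.3 ± 4.81% (SD, n = 6) with GABA, inside the spread of the untreated group. With GABA against without it, the ratio of geometric means was 0.793 for the monocyte markers (exact permutation p 0.115, adjusted 0.138). It was 0.982 for the macrophage markers (exact permutation p 0.838, adjusted 0.924) and 0.694 for the neutrophil markers (exact permutation p 0.0974, adjusted 0.195). Molecules per library gave 1.26 (exact permutation p 0.171, adjusted 0.171), and the part of these was not tested.

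Against WT, which the first comparison also used, *muMt*-/- TAMs with GABA had overlapping values for all 6 genes. *Fcgr2b* was at 115 ± 27.5 (SD, n = 6), 1.14 times the WT mean, with 3 of 6 libraries above every WT library (log2 fold change 0.19, adjusted p 0.866). *Fcer1g* was at 265 ± 85.3 (SD, n = 6), 0.835 of the WT mean, with 2 of 6 libraries below every WT library (log2 fold change -0.25, adjusted p 0.845). The other log2 fold changes were -0.08 for *Fcgr1*, -0.15 for *Fcgr3*, 0.14 for *Fcgr4* and -0.02 for *Fcgrt*. In edgeR, 0 of 6 members passed, beside 7 of 9469 genes tested (0.0739%). With 1 library left out at a time the count over all genes ran from 2 (as without WT replicate 3) to 9 (without GABA replicate 4). No member reached an unadjusted p under 0.05, beside 7.02% of genes tested, and DESeq2 called 0 members and 13 genes. Within libraries, *Fcer1g* per 100 Fcγ receptor molecules had a mean of 51.6 with GABA against 63.1 in WT, with 4 of 6 libraries below every WT library, and per 100 activating receptor molecules 67.2 against 79.1, with 2 of 6 below. The *Fcgr2b* share had a mean of 23.3% against 20.1%, and 4 of 6 GABA libraries exceeded the WT range while 1 fell short of it. The monocyte markers summed to 420 ± 38.3 (SD, n = 6) with GABA, 1.33 times WT by geometric means (exact permutation p 0.00433, adjusted 0.0260), and the macrophage markers to 1871 ± 305 (SD, n = 6), 0.809 of WT by geometric means (exact permutation p 0.0260, adjusted 0.0390). The dendritic cell markers summed to 3.44 with GABA against 1.22 in WT (exact permutation p 0.00649, adjusted 0.0325), and the NK cell markers to 2.28 against 0.154 (exact permutation p 0.0281, adjusted 0.169). Their part was not tested.

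Among themselves the genes varied in different ways over the 18 TAM libraries. *Fcgr3* and *Fcer1g* moved together (r = 0.885), whereas *Fcgr2b* followed no other member closely (r from -0.0474 with *Fcer1g* to 0.370 with *Fcgrt*). All r here pool the 3 groups. Replicate 1 with GABA held the lowest values of both *Fcgr3* and *Fcer1g* (86.3 and 105), and its part in r was not tested. The coefficient of variation was 25.8% for *Fcgr2b* and 24.7% for *Fcer1g*, where counting error alone would give 8.87% and 5.73%. For *Fcgrt* it was 49.4% with a counting error of 40.3%, so little beyond sampling could be read from that gene. Of 5310 genes compared over 18 libraries, the patterns most like *Fcgr2b* were those of *Mef2d* (r = 0.820), *Slamf7* (r = 0.807) and *Kansl1* (r = 0.785). Those most like *Fcer1g* were *Tagln2* (r = 0.961), *Cd300c2* (r = 0.948) and *Grn* (r = 0.940), and those most like *Fcgr3* were *Ctss* (r = 0.949), *Morf4l1* (r = 0.936) and *Psap* (r = 0.927). *Fcgr4* was most like *Clec4d* (r = 0.887), *Fgl2* (r = 0.846) and *Ass1* (r = 0.824). *Fcgr1* was most like *Hcls1* (r = 0.775), *Sema4d* (r = 0.766) and *Il12rb1* (r = 0.766), and *Fcgrt* most like *Stx12* (r = 0.742), *Notch2* (r = 0.731) and *Kat7* (r = 0.727).

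CD8+ T cell libraries held few Fc receptor molecules. In WT mice the normalized number was 4.46 ± 6.00 (SD, n = 6) for *Fcer1g*, 3.04 ± 3.44 (SD, n = 6) for *Fcgr3* and 2.08 ± 3.56 (SD, n = 6) for *Fcgr2b*, with 2, 2 and 3 of 6 libraries at 0. *Fcgr1* was at 1.0 ± 1.13 (SD, n = 6) and *Fcgr4* at 0.631 ± 1.01 (SD, n = 6), with 3 and 4 libraries at 0. *Fcgrt* was not detected in any WT CD8+ T cell library. Against WT CD8+ T cells, WT TAMs had higher values of all 6 genes. By the edgeR test the 5 genes other than *Fcgrt* passed, beside 16.8% of 8477 genes tested that were higher in TAMs. The log2 fold changes ran from 4.0 for *Fcgr2b* (adjusted p 2.27e-07) to 5.46 for *Fcgr4* (adjusted p 8.7e-11), with *Fcgr3* at 4.42, *Fcer1g* at 4.61 and *Fcgr1* at 5.12. Without WT CD8+ T cell replicate 5 they were 5.46 for *Fcgr2b*, 6.06 for *Fcgr4*, 5.06 for *Fcgr3*, 5.6 for *Fcer1g* and 5.49 for *Fcgr1*. These 5 still passed, beside 1817 of 8522 genes tested (21.3%, either direction). *Fcgrt*, with 47 of 1468266 molecules in WT TAMs against 0 of 262840, was at least 2.81-fold higher, taking a floor of 3 molecules over the group. Its test is not read, as it met the filter only through TAMs.

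The third comparison asked about B cell absence in CD8+ T cells. All 5 genes that could be tested had higher means in *muMt*-/- than in WT libraries, 1 library held about as many of their molecules as the other 5 together, and none passed the test. *Fcgr3* had a lowest, median and highest value of 0, 2.31 and 9.15 in WT and 4.49, 5.58 and 42.5 in *muMt*-/- CD8+ T cells. *Fcer1g* ran 0, 3.13 and 16.0 in WT against 5.61, 8.68 and 34.4. In both genes all 6 *muMt*-/- libraries were above the WT median and the groups overlapped. *Fcgr2b* ran 0, 0.751 and 9.15 against 1.12, 4.30 and 36.4, *Fcgr4* 0, 0 and 2.29 against 1.67, 3.01 and 23.3, and *Fcgr1* 0, 0.751 and 2.29 against 0, 2.35 and 12.1. In all 5 genes the highest *muMt*-/- value belonged to replicate 1, which held 147 of the group's 293 Fc receptor molecules (50.2%). *Fcgrt* gave 5 molecules over the *muMt*-/- group and 0 over WT, too few to test.

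The log2 fold changes were 1.95 for *Fcgr3* (SE 0.65, p 0.00479, adjusted p 0.449), 2.65 for *Fcgr4* (SE 0.89, p 0.00497, adjusted p 0.454) and 1.39 for *Fcer1g* (SE 0.57, p 0.0185, adjusted p 0.686). They were 1.89 for *Fcgr2b* (SE 0.82, p 0.0261, adjusted p 0.713) and 1.62 for *Fcgr1* (SE 0.89, p 0.0768, adjusted p 0.850). In edgeR 0 of 5 members passed, beside 0 of 6663 genes tested (0%), and at an unadjusted p under 0.05 the count was 4 of 5, all higher, beside 5.37% of genes tested. DESeq2 called 0 members and 0 genes. With no filter on low counts edgeR called 4 members, beside 72 of 13109 genes (0.549%). Without *muMt*-/- replicate 1 the log2 fold changes were 1.23 for *Fcgr3*, 1.62 for *Fcgr4*, 0.89 for *Fcer1g*, 0.77 for *Fcgr2b* and 0.82 for *Fcgr1*. Without WT replicate 5 they were 2.60, 3.23, 2.39, 3.31 and 1.99 in the same order. None passed in either case, beside 0 of 6624 genes tested without *muMt*-/- replicate 1 and 13 of 6667 (0.195%) without WT replicate 5.

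Macrophage markers moved with the Fc receptors in the CD8+ T cell libraries. The 12 markers, all detected and led by *Ctsd*, summed to 25.3 ± 12.8 (SD, n = 6) in WT, 81.7 ± 65.8 (SD, n = 6) in *muMt*-/- and 77.6 ± 54.3 (SD, n = 6) in *muMt*-/- CD8+ T cells with GABA. Against WT the ratios of geometric means were 2.75 (exact permutation p 0.0108, adjusted 0.0390) and 2.64 (exact permutation p 0.0216, adjusted 0.0390). *Adgre1*, *Mertk* and *Mrc1* were at 0 in the WT group. As a percent of the mean TAM level of the same genotype and treatment, with size factors set over all 36 libraries, the macrophage sum had a lowest, median and highest value of 1.67%, 2.90% and 6.09% in WT, 5.27%, 7.77% and 29.2% in *muMt*-/-, and 4.12%, 9.41% and 24.4% with GABA. *Ctsd* gave 68 of the 123 macrophage marker molecules in WT CD8+ T cells and stood at 44.5% of its TAM level there, while the other 11 markers were at 0% to 5.40%. Without *Ctsd*, a setting chosen after the values were seen, the median of the sum was 1.07%, 5.81% and 7.18% in the 3 groups, and the mean of its normalized number 11.3, 60.2 and 56.9. The summed Fcγ receptors and *Fcer1g* ran 0%, 2.21% and 13.4% in WT, 5.62%, 7.87% and 50.5% in *muMt*-/-, and 1.47%, 17.2% and 33.3% with GABA. Gene by gene, the median of the 6 members in CD8+ T cells was 3.39%, 15.7% and 17.0% of their TAM level in the 3 groups, against 1.06%, 8.42% and 8.68% for the 12 macrophage markers. These percents use group means, which single high libraries raise. In *muMt*-/-, *Fcgr3* was at 20.4% by the mean and 8.74% by the median library, and the marker *Itgam* at 19.4% and 4.90%. They also include *Fcgrt*, at 33.2% and 44.8% without and with GABA, from 5 and 8 molecules. Libraries high in the one sum were mostly high in the other, and over the 18 libraries each of the 5 genes went with the macrophage sum at r from 0.709 (*Fcgr1*) to 0.870 (*Fcgr3*). With the macrophage sum as a covariate, the log2 fold changes of *muMt*-/- against WT were 0.32 for *Fcgr1*, -0.57 for *Fcgr2b*, -0.01 for *Fcgr3*, 0.59 for *Fcgr4* and -0.01 for *Fcer1g*.

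Markers of other cell types were summed in the CD8+ T cell libraries too. The monocyte markers, 6 of 6 detected and led by *Ly6c2*, which CD8+ T cells also express, summed to 84.8, 117 and 119 in WT, *muMt*-/- and *muMt*-/- with GABA. The NK cell markers, 3 of 5 detected with *Ncr1* and *Klra8* at 0, summed to 1.87, 2.88 and 3.98. The B cell markers, 3 of 8 detected, summed to 0.172, 0.479 and 0.728, the neutrophil markers, 5 of 8 detected, to 2.32, 5.70 and 4.50, and the T cell markers to 200.4, 164 and 165. For the neutrophil markers, *muMt*-/- against WT had an exact permutation p of 0.0866 (adjusted 0.195). The dendritic cell markers, 4 of 6 detected, summed to 0.887, 0.945 and 0.550, the mast cell and basophil markers, 1 of 6 detected, to 1.70, 1.23 and 1.28, and the tumour and stroma markers, 5 of 8 detected, to 16.1, 30.3 and 14.1. Depth was also higher in *muMt*-/- than in WT CD8+ T cell libraries (ratio of geometric means 1.67, exact permutation p 0.0390, adjusted 0.0779). The part of these in the Fc receptor values was not tested.

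**Figure D3:**
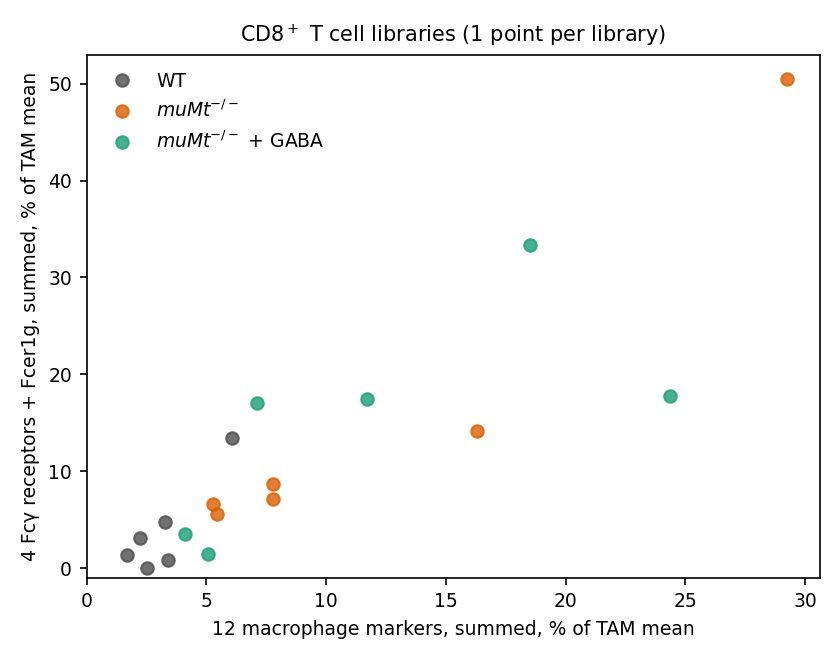
Summed Fcγ receptors and *Fcer1g* (y axis) against 12 summed macrophage markers (x axis), each as a percent of the mean of the TAM group with the same genotype and treatment, with 1 point per CD8+ T cell library. The *muMt*-/- library at 50.5% for Fc receptors was at 29.2% for macrophage markers.

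With GABA, the CD8+ T cell values of *muMt*-/- mice overlapped those of the untreated group. *Fcer1g* had a lowest, median and highest value of 2.34, 18.1 and 23.6, and *Fcgr1* ran 0, 5.53 and 12.7. *Fcgr3* ran 0, 9.52 and 15.9, *Fcgr2b* 0.620, 5.50 and 28.0, and *Fcgr4* 0, 2.03 and 14.0. Replicate 1 was highest for *Fcgr2b*, *Fcgr3*, *Fcgr4* and *Fcgr1*, and held 40.8% of the group's 348 Fc receptor molecules. Against untreated *muMt*-/- the log2 fold changes were 0.93 for *Fcgr1*, -0.07 for *Fcgr2b*, -0.60 for *Fcgr3*, -0.43 for *Fcgr4* and 0.27 for *Fcer1g* (adjusted p 0.999 for each). Without replicate 1 of both groups, a setting chosen after the values were seen, they were 1.37, -0.03, -0.19, -0.44 and 0.66. In edgeR 0 of 5 members passed, beside 0 of 6663 genes tested (0%). The count was 0 at an unadjusted p under 0.05, beside 3.71% of genes tested, and 0 by DESeq2.

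Against WT, whose libraries the third comparison also used, CD8+ T cells of *muMt*-/- mice with GABA had higher means of all 5 genes and more molecules per library (ratio of geometric means 2.01, exact permutation p 0.00866, adjusted 0.0519). The log2 fold changes were 2.54 for *Fcgr1* (adjusted p 0.458), 1.82 for *Fcgr2b* (adjusted p 0.649), 1.35 for *Fcgr3* (adjusted p 0.725), 2.22 for *Fcgr4* (adjusted p 0.610) and 1.66 for *Fcer1g* (adjusted p 0.458). In edgeR 0 of 5 passed, beside 0 of 6663 genes tested (0%), with 4 of 5 higher at an unadjusted p under 0.05, beside 5.99% of genes tested. DESeq2 called 0 members, beside 1 of 6663 genes (0.0150%). Without a filter on low counts edgeR called 3 members, beside 64 of 13109 genes (0.488%). Without replicate 1 of the GABA group the values were 2.14, 0.68, 0.97, 1.13 and 1.48 in the same order of genes, and without WT replicate 5 they were 2.92, 3.25, 2.01, 2.81 and 2.67, with 0 members called. The count over all genes in these 2 settings was 1 of 6581 (0.0152%) and 0 of 6667. With the macrophage sum as a covariate the log2 fold changes were 1.35, -0.42, -0.46, 0.28 and 0.33.

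The response to B cell absence was then compared between the cell types in 1 fit of 36 libraries. TAM minus CD8+ T cell, the difference of the log2 fold changes was -2.12 for *Fcgr3* (p 0.00240, adjusted p 0.224), -2.52 for *Fcgr4* (adjusted p 0.329), -1.84 for *Fcer1g* (adjusted p 0.263), -1.69 for *Fcgr1* (adjusted p 0.498) and -1.44 for *Fcgr2b* (adjusted p 0.556). No difference is read for *Fcgrt*, which had 0 molecules in WT CD8+ T cells and met the filter only through TAMs. Each difference given was negative, as the CD8+ T cell means differed several-fold and the TAM means by less. Over 30 alternatives the difference for *Fcgr2b* ran from -2.93, without WT CD8+ T cell replicate 5, to -0.29, without *muMt*-/- CD8+ T cell replicate 1. Without the same 2 libraries in turn it was -2.80 and -1.37 for *Fcgr3*, -3.16 and -1.46 for *Fcgr4*, -2.87 and -1.31 for *Fcer1g*, and -2.10 and -0.87 for *Fcgr1*. Of the members other than *Fcgrt*, 0 passed in edgeR, beside 1 of 8477 genes tested (0.0118%). Without WT CD8+ T cell replicate 5 the count over all genes was 9 of 8522 (0.106%). Apart from *Fcgrt*, 3 members, all lower (*Fcgr3*, *Fcgr4* and *Fcer1g*), had an unadjusted p under 0.05, beside 8.32% of genes tested. DESeq2 called 0 members and 38 genes, and edgeR without a filter on low counts called 3 members, beside 79 of 15593 genes (0.507%). For the response to GABA, where *Fcgrt* is not read either, 0 of the other members passed in edgeR, beside 0 of 8477 genes tested (0%). Of these members, 0 had an unadjusted p under 0.05 (beside 4.53%) and DESeq2 called 0.

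Pooled over the libraries of a group, *Fcer1g* per 100 Fcγ receptor molecules was 62.7 in WT, 43.1 in *muMt*-/- and 53.4 in *muMt*-/- TAMs with GABA. In CD8+ T cells it was 63.9 (95% interval 38.1 to 107), 40.9 (31.8 to 52.6) and 54.0 (43.3 to 67.2). These intervals cover counting error of the pooled molecules and not the spread between mice. Single CD8+ T cell libraries with any receptor molecule ran from 0 to 100 in WT, 30.1 to 73.7 in *muMt*-/- and 27.9 to 150 with GABA. The order of groups was the same in both cell types. It rested on 36, 208 and 226 receptor molecules in CD8+ T cells, and without the library that stood apart in each group, a setting chosen after the values were seen, they were 56.2, 53.7 and 79.1 over 16, 95 and 115 receptor molecules, with GABA then the highest.

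The genes around the Fc receptors in their pathway were taken from lists, whose counts for *muMt*-/- against WT TAMs stand beside the shares of all genes tested, 2.05% called, 6.72% higher and 8.15% lower at an unadjusted p below 0.05. For *muMt*-/- against WT TAMs, 0 of 3 partner chains and adaptors passed, among them *Tyrobp*, an ITAM adaptor like the γ-chain, at 162 ± 46.8 (SD, n = 6) against 201 ± 23.0 (SD, n = 6) (adjusted p 0.409). Of 6 receptors that signal through *Tyrobp*, 1 fell: *Trem2*, a lipid-sensing receptor of macrophages, was at 16.3 ± 4.51 (SD, n = 6) against 34.9 ± 6.41 (SD, n = 6) (log2 fold change -1.11, adjusted p 0.00828). Of the other Fc receptors, 13 were in the table, 2 were abundant enough to test, and 1, the Fc receptor-like gene *Fcrls*, fell from 24.8 ± 9.98 (SD, n = 6) to 12.6 ± 5.35 (SD, n = 6) (log2 fold change -1.05, adjusted p 0.0360). *Trim21*, the cytosolic IgG receptor, was at 6.47 against 3.92 (adjusted p 0.500). Of other receptors that use the γ-chain, *Clec4d* was at 34.1 ± 8.37 (SD, n = 6) against 22.1 ± 7.91 (SD, n = 6), *Clec4e*, the sensor Mincle, at 32.7 ± 10.6 (SD, n = 6) against 20.4 ± 5.58 (SD, n = 6) and *Clec4n* at 30.0 ± 11.6 (SD, n = 6) against 31.8 ± 10.3 (SD, n = 6). In that list 0 of 3 passed, and 2 were higher and 0 lower at an unadjusted p below 0.05. Its median log2 fold change was 0.59 beside -0.05 for all genes tested.

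Downstream of the receptors, 0 of 29 ITAM signalling genes passed, with a median log2 fold change of 0.13, and an unadjusted p under 0.05 was reached by 6 that were higher and 3 that were lower. *Lyn*, a kinase that phosphorylates both ITAM and ITIM motifs, was at 97.3 ± 10.2 (SD, n = 6) in *muMt*-/- against 87.1 ± 8.14 (SD, n = 6) in WT TAMs (adjusted p 0.745). Of 19 genes of the phagocytic actin machinery 0 passed, with a median of -0.14 and 0 higher and 2 lower at an unadjusted p below 0.05. *Cfl1*, cofilin, was at 181 ± 29.2 (SD, n = 6) against 237 ± 17.0 (SD, n = 6) (adjusted p 0.127). *Arpc2* was at 412 ± 70.4 (SD, n = 6) against 332 ± 32.6 (SD, n = 6) (adjusted p 0.449). *Actr3* was at 171 ± 25.0 (SD, n = 6) against 180 ± 15.8 (SD, n = 6) (adjusted p 0.799). Of 20 ITIM receptors and inhibitory phosphatases 0 passed, with a median of -0.08, and 3 were higher and 3 lower at an unadjusted p below 0.05. *Ptpn6*, the phosphatase SHP-1, was at 58.3 ± 7.92 (SD, n = 6) against 61.7 ± 10.2 (SD, n = 6) (adjusted p 0.838). Because IFN-γ induces *Fcgr1* in macrophages, 19 IFN-γ-induced genes were read as well: 1 rose, *Cd274* (PD-L1), from 46.8 ± 11.2 (SD, n = 6) to 86.1 ± 9.75 (SD, n = 6) (log2 fold change 0.84, adjusted p 0.00349), and the median was -0.05. At an unadjusted p below 0.05, 2 of the 19 were higher and 3 lower, and *Cxcl10*, a chemokine, was at 108 ± 37.0 (SD, n = 6) against 174 ± 58.5 (SD, n = 6) in WT (adjusted p 0.143). Between GABA and untreated *muMt*-/- TAMs edgeR called 0 genes of these lists, beside 2 of 9469 genes tested (0.0211%). In every CD8+ T cell comparison it also called 0, beside 0 of 6663 (0%). *Trem2* was then at 23.7 ± 9.96 (SD, n = 6) with GABA (log2 fold change 0.61, adjusted p 0.502).

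On the GRCm38.p6 (mm10) genome, 4 of the 6 genes lie close together on chromosome 1: *Fcgr2b* at chr1:170960558-170976071 (minus strand), *Fcgr4* at chr1:171018926-171029761 (plus strand), *Fcgr3* at chr1:171051169-171065915 (minus strand) and *Fcer1g* at chr1:171229572-171234349 (minus strand). *Fcgr1* lies at chr3:96282909-96293969 and *Fcgrt* at chr7:45092993-45103822, both on the minus strand. Neighbours on chromosome 1 thus included the gene with the higher mean in *muMt*-/- TAMs and the gene with the lower one. *Fcgr2b* and *Fcgr3* are similar in sequence and share 233 stretches of 31 bases, 6.63% of those in the longest *Fcgr2b* transcript and 17.7% of those in that of *Fcgr3*. They shared 0 in the last 500 bases, the end from which molecules were primed. An antisense transcript overlaps *Fcgr2b* (*Gm38204*) and another overlaps *Fcgrt* (*Gm45669*), neither of which was in the table.

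The promoters of all 6 genes were found in the RefSeq set, as 250 bases before to 50 bases after the start, and are shown where they hold a motif, because the mean share of *Fcgr2b* was larger in *muMt*-/- than in WT TAMs. Both strands were searched for TTCNNNGAA, the palindrome of IFN-γ-activated sites, which 2726 of 32851 mouse promoters (8.30%) hold, and for ACTTCC, the core bound by ETS factors such as PU.1, which 7809 (23.8%) hold. *Fcgr1* had both motifs, *Fcgr2b* and *Fcgr4* had ACTTCC, and *Fcgr3* (in both of its entries), *Fcer1g* and *Fcgrt* had neither in this window. The *Fcgr3* windows, chr1:171059354-171059653 and chr1:171059345-171059644, lie inside the gene span given above. The end of that span at chr1:171065915, its start on the minus strand, was not searched. A match is a description of letters and not a site. Capitals mark the motif in each window, written 5′ to 3′ on the strand of the gene: *Fcgr1* at chr3:96294050-96294098 and chr3:96294005-96294050 (minus strand), *Fcgr2b* at chr1:170976077-170976122 (minus strand) and *Fcgr4* at chr1:171018882-171018927 (plus strand).
Fcgr1, IFN-γ motif: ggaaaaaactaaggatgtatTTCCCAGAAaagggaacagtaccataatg
Fcgr1, ETS motif: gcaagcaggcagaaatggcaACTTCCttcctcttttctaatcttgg
Fcgr2b, ETS motif: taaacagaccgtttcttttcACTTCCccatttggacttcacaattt
Fcgr4, ETS motif: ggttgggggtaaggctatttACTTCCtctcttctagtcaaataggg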

How the data were processed

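The deposited values are counts of distinct molecules per gene and library, which the authors obtained by mapping MiSeq reads to mm10 (UCSC refFlat) with STAR 2.5.4b and counting molecular barcodes. Whether counting used strand is not stated in the sources used here. Differences were tested with edgeR 4.0.16 (quasi-likelihood F-test, TMM) in R 4.3.3, in 1 fit of 18 libraries per cell type, or of 36 libraries for comparisons between cell types. Testing covered genes whose normalized number averaged more than 1, p-values were adjusted over all of them (Benjamini-Hochberg), and an adjusted p under 0.05 was called. DESeq2 1.42.0 gave the size factors and a second test. Depth and marker sums (with 1 added) were compared on the log2 scale by two-sided exact permutation tests of 6 against 6 libraries (smallest possible p 0.00216), adjusted over the 6 comparisons of a measure. Ratios used raw molecules. Correlations used log2(normalized number + 1), are Pearson's r and carry no p. Intervals for shares are 95% Wilson intervals, and those for *Fcer1g* per 100 receptor molecules follow from its Wilson share of the summed molecules. Summaries used pandas 2.3.3, scipy 1.17.1 and numpy 2.4.6 in Python 3.11.15, and plots matplotlib 3.10.9. Named were all 6 members, each list's called genes, others from its 3 most abundant in TAMs, the 3 genes most similar to each member, and antisense transcripts overlapping a member. The lists covered partners, adaptors, signalling, IFN-γ-induced genes and markers of 9 cell types. Members and lists were chosen with earlier results of these data known. The study named *Fcgr2b* among genes it picked on these TAM libraries, so its direction here is not independent evidence. Immunoglobulin genes were not analysed here, and some other genes are not reported here. Alternatives changed the normalization, test, filter, covariates and libraries.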

Additional observations from a re-analysis of the deposited data

Results flagged for a closer look

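A library was singled out where its gap to the nearest other library of the group was too large a part of the group's whole range by Dixon's 95% critical value. Chance alone gives this in about 1 in 20 groups, and here 12 of 56 groups tested had one.

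In CD8+ T cells, *muMt*-/- replicate 1 was far above the other 5 libraries of its group in all 5 genes of the Fcγ receptors and γ-chain: the normalized number of molecules was 12.1 for *Fcgr1*, 36.4 for *Fcgr2b*, 42.5 for *Fcgr3*, 23.3 for *Fcgr4* and 34.4 for *Fcer1g*. Replicate 1 of *muMt*-/- with GABA was far above its group for *Fcgr2b* (28.0) and *Fcgr4* (14.0). WT replicate 5 was far above its group for *Fcgr2b* (9.15) and *Fcer1g* (16.0).

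In TAMs, the share of *Fcgr3* among Fcγ receptor molecules was far below the rest of its group in *muMt*-/- replicate 4, at 23.4%. The activating receptor molecules per *Fcgr2b* molecule were far above the rest in replicate 5 of *muMt*-/- with GABA, at 5.71. *Fcer1g* per 100 Fcγ receptor molecules was far below the rest in replicate 1 of *muMt*-/- with GABA, at 30.0.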

How the results depend on the processing

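The count of members called was 0 in each comparison within a cell type, and alternatives changed it as follows; the cause was not tested. For *muMt*-/- against WT TAMs it was 1 with DESeq2's Wald test (adjusted p; 2.98% of all genes), 1 with DESeq2's unadjusted p (11.7%) and 1 with edgeR's filterByExpr (7.66%), each time *Fcgr2b*. For *muMt*-/- against WT CD8+ T cells it was 2 with DESeq2's unadjusted p (3.33% of all genes) and 4 with no filter on low counts (0.549%). For *muMt*-/- with GABA against WT CD8+ T cells it was 3 with each of these (3.33% and 0.488%). For the response to B cell absence, TAM minus CD8+ T cell, it was 3 with no filter (0.507%). Between TAMs and CD8+ T cells of WT mice the 5 members other than *Fcgrt* passed under every alternative. Over all genes 22.7% were called in the main fit, 13.2% with no filter and 44.6% (1166 of 2614) with filterByExpr, which left out *Fcgrt*.

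Some log2 fold changes, none of which had passed the test, changed sign; the cause was not tested. *Fcgr1* in *muMt*-/- against WT TAMs was 0.0148 with DESeq2's size factors, 0.0120 with DESeq2's Wald test at either threshold and 0.0163 with filterByExpr, and *Fcgr3* there was 0.13 with log2 molecules as a covariate. With the macrophage sum as a covariate, *muMt*-/- against WT CD8+ T cells gave -0.575 for *Fcgr2b*, -0.0133 for *Fcgr3* and -0.00565 for *Fcer1g*, GABA against untreated *muMt*-/- gave 0.16 for *Fcgr2b*, and GABA against WT gave -0.42 for *Fcgr2b* and -0.46 for *Fcgr3*.

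Leaving out 1 library at a time gave these ranges where a sign changed. *muMt*-/- against WT TAMs: *Fcgr1* -0.0921 to 0.0549 and *Fcgrt* -0.44 to 0.10. GABA against untreated *muMt*-/- TAMs: *Fcgr1* -0.17 to 0.00522, *Fcgr3* -0.11 to 0.12, *Fcgr4* -0.21 to 0.00546 and *Fcgrt* -0.0548 to 0.35. GABA against WT TAMs: *Fcgrt* -0.27 to 0.27. GABA against untreated *muMt*-/- CD8+ T cells: *Fcgr2b* -1.18 to 1.046, *Fcgr3* -0.95 to 0.12 and *Fcgr4* -1.50 to 0.60. Response to GABA, TAM minus CD8+ T cell: *Fcgr2b* -1.40 to 0.84, *Fcgr3* -0.17 to 0.88, *Fcgr4* -0.73 to 1.39, *Fcer1g* -0.63 to 0.0708 and *Fcgrt* -0.69 to 0.39.

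When 1 TAM library at a time was left out, the difference of *muMt*-/- from WT ran from -21.3 to -17.2 for *Fcer1g* per 100 receptor molecules and from 4.61 to 7.66 percentage points for the *Fcgr2b* share. For GABA against untreated *muMt*-/- these ran from 5.67 to 12.8 and from -4.42 to -1.37, and for GABA against WT from -13.4 to -7.23 and from 2.29 to 4.93. In no pair of groups did every 2 libraries of the same replicate number correlate above 0.1 in their deviations, and in none was every library most alike to its own number, so none were treated as paired. The closest were the *muMt*-/- CD8+ T cell groups with and without GABA, at a median r of 0.133 for the same number and -0.0502 for different numbers, with 3 of 6 above 0.1. With the replicate number as a block, 0 members passed in the comparisons within a cell type. Over all genes the calls, for *muMt*-/- against WT, GABA against untreated and GABA against WT, were 201 (2.12%), 4 (0.0422%) and 6 (0.0634%) of 9469 in TAMs. In CD8+ T cells they were 0, 2 (0.0300%) and 1 (0.0150%) of 6663. With this block *Fcgr2b* in *muMt*-/- against WT TAMs was 0.49 (adjusted p 0.0966).

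With 0 to 44 molecules of a receptor gene per CD8+ T cell library and 1 to 16 of *Fcgrt* per TAM library, counts were low, and even several-fold differences of CD8+ T cell means did not pass. The spread between CD8+ T cell libraries was also wider than counting error, with a coefficient of variation of 156% against 36% for *Fcgr2b* and 165% against 48.0% for *Fcgr4*. The absence of a call there does not show equal levels.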
